A study of Mus musculus with 13 samples.

Results

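Genes of the extracellular matrix, of its integrin receptors and of the proteases that cut it were taken from a comparison of liver DNA methylation between 2 diets. The members are the sites whose gene symbol begins as a collagen chain (Col with its number), a laminin chain (Lama, Lamb or Lamc), an integrin subunit (Itga or Itgb), Adamts, Mmp, Timp or Fbn. The rule gave 142 sites at 69 symbols, of 23904 sites and 9100 symbols in all. Symbols of the Timp and Fbn kinds matched no row analysed here. Among the 69 are 2 that name proteins of another kind, Col4a3bp (a ceramide carrier) and Itgb1bp1 (a partner of an integrin tail), and 67 that name matrix, integrin or protease family members.

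The study measured bulk liver DNA from 13 mice by bisulfite sequencing of captured regions, a method in which bisulfite turns cytosines that lack a methyl group into bases read as thymine and leaves methylated ones. One group of 7 mice ate a low fat/low sucrose diet (LFLS below) and the other group of 6 ate a high fat/high sucrose diet (HFHS below). The sources used here give no strain, sex, age or time on the diet. The titles of the mice begin with G1 or G2, a prefix that no label explains. The prefix G1 covers 4 LFLS and 3 HFHS mice, and G2 covers 3 of each. The question was where liver methylation depends on diet. In the authors' deposited table there is 1 average percent methylation per diet and site, so neither a spread between mice nor the read depth of a site can be given. Every row of the authors' deposited table had already passed limits on q (largest 0.01) and on the difference (smallest 5 percentage points), so "higher" and "lower" below mean HFHS against LFLS at a site that the authors' test had called. No further test was run.

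Collagens are the main fibres and sheets of the matrix, and laminins with collagen IV build the basement membranes under epithelia and around vessels. Integrins pair 1 alpha with 1 beta subunit and tie cells to these proteins or to other cells. Mmp and Adamts enzymes cut matrix proteins and proteoglycans, and Timp proteins block them. In liver, matrix is made largely by stellate cells and portal fibroblasts, the sinusoids lack a full basement membrane, and several integrins belong to leukocytes. A methylation average of bulk liver mixes all these cells, so a shift in the share of a cell type and a change of methylation within cells cannot be told apart.

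Promoters are shown for 3 genes whose measured sites lie within or next to the window that RefSeq gives, 250 bases before to 50 after the start, to show how their CpG content differs. CpGs are in capitals. Sequences are from RefSeq, GRCm38.p6, minus strand, whereas the sites are in mm9, and 42 of the 69 symbols had an entry. The windows are chr2:12301895-12302194 for Itga8 (23 CpGs), chr2:180225810-180226109 for Lama5 (24 CpGs) and chr10:77113656-77113955 for the later of 2 Col18a1 starts (6 CpGs).
Itga8: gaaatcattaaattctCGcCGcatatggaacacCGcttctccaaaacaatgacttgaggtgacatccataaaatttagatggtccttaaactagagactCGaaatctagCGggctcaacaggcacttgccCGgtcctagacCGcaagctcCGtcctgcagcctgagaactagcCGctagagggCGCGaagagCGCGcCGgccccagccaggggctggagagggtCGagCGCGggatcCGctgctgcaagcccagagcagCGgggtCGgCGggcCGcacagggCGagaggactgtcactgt
Lama5: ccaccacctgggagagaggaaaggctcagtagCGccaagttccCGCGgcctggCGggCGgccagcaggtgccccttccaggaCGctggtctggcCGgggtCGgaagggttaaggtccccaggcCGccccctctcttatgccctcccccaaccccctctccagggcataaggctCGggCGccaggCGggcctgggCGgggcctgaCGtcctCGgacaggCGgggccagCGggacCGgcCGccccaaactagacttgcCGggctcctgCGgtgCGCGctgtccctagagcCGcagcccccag
Col18a1: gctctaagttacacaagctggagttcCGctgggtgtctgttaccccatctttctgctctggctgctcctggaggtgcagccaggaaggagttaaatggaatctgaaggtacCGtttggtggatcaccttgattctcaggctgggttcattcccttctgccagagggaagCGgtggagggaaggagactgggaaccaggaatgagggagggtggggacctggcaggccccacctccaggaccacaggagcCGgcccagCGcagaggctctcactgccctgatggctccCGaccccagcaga

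CG, which reads the same on both strands, occurs at least once in 94.6% of the 32851 RefSeq promoters of this length, with a median of 7. At least as many CpGs as Itga8 were held by 21.5% of them, as many as Lama5 by 19.98% and as many as Col18a1 by 56.4%. The Itga8 site is listed 241 bp before its start, which is base 10 of the printed window, and no CpG stands there, so the start used by the authors and that of RefSeq may differ. The Lama5 site is listed 255 bp before its start and the 3 Col18a1 sites 128 to 164 bp after theirs, outside the printed windows.

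Across the members 78 sites were higher and 64 were lower in HFHS, 54.9% higher, beside 57.6% of all sites listed. With member sites within 1000 bp of each other joined and each cluster read by its site with the smallest p, 61 of 117 member clusters were higher, 52.1%, against 55.6% of all clusters. The members as a whole therefore lay near the background in direction. Their sizes were also near it: an absolute difference of 10 points or more was listed for 96 of the 142 (67.6%), against 65.0% of all sites, and the median absolute difference was 12.2 points, against 11.7. The median rise was 11.5 points and the median fall -12.7 points. The classes differed among themselves. Rises made up 29 of 44 sites at collagens and 10 of 14 at Mmp genes, while integrin subunits had 12 of 34, and Adamts genes lay in between with 11 of 19. Collagen sites had a median LFLS average of 26.4% and Mmp sites 25.8%, against 47.4% over all sites and 70.6% at integrin sites. Of all sites whose mean of the 2 diet averages was under 30%, 79.5% were higher.

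**Figure D1:**
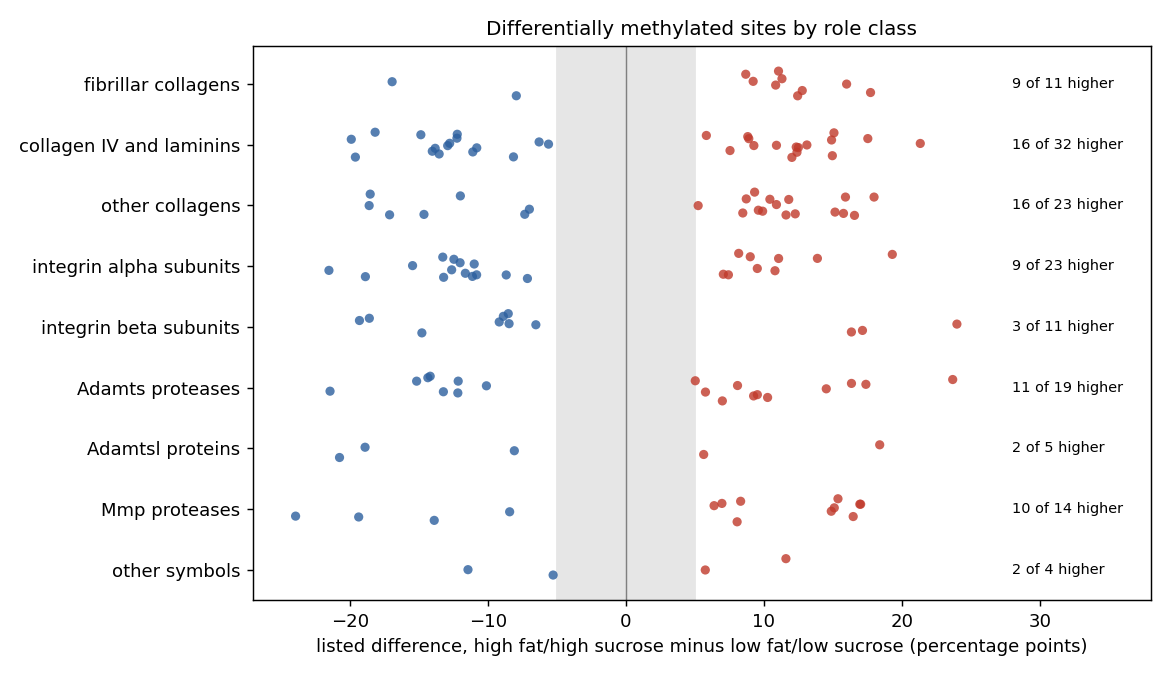
Each point is 1 site, placed by its listed methylation difference in percentage points (HFHS minus LFLS, red higher, blue lower) within its role class, with vertical scatter for legibility only; the grey band from -5 to 5 holds no sites because the table excludes them. Fibrillar collagens (9 of 11 higher) and Mmp proteases (10 of 14) have most points on the right, and integrin beta subunits (3 of 11) have most on the left.

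Sites at fibrillar collagens, the chains that form the banded fibres, were higher at 9 of 11 positions, where 57.6% of all sites were. With 1 site per cluster 75% of 8 were higher, against 55.6% of all clusters. The class had a median LFLS average of 29.2%, and 79.5% of all sites with a mean level under 30% were higher. The 11 sites lay at 4 genes, Col2a1, Col5a1, Col5a3 and Col11a2. The genes of the major fibres, Col1a1, Col1a2 and Col3a1, matched no row analysed here. Col5a1 encodes a chain of collagen V, which sets the diameter of collagen I fibrils, and had 4 sites on chromosome 2. Its site in a CpG island of the promoter, at 27742651, was listed at 0% in LFLS and 9.84% in HFHS in the authors' deposited table (q = 0.000314). In an intron 23360 and 24173 bp from the start lay a pair of Col5a1 sites 813 bp apart that moved in opposite directions. The authors' deposited table gives 89.8% in LFLS and 74.4% in HFHS for the first, and 33.7% and 46.5% for the second. Col5a3, another collagen V chain, had its 3 sites all higher. For its promoter pair on chromosome 9, at 20619271 and 20619297, the authors' deposited table lists 33.3% against 39.7% and 29.2% against 41.0%. Both Col11a2 sites (chromosome 17, 34173455 and 34173461) lay before the Col11a2 start yet carry the intron flag, and Rxrb is the neighbouring gene in GRCm38.p6. Their listed differences were 16.0 and 12.4 points in the authors' deposited table. Col2a1, the main cartilage collagen, had 1 site higher and 1 lower.

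Basement membrane genes, collagen IV and the laminins, had equal counts, 16 higher and 16 lower at 12 genes, where 57.6% of all sites were higher. Col4a1, a chain of the common collagen IV network, had the most sites of any member, 7 on chromosome 8 between 11183794 and 11309067. Its 3 intronic sites within 34 kb of the start were all lower, with differences of -6.28, -14.8 and -12.8 points in the authors' deposited table. Farther on, 3 sites with gaps of 104 and 199 bp between them, 128730 to 129033 bp from the start and without a gene flag, were all higher. For these the LFLS averages were 6.14, 12.2 and 21.2% and the HFHS averages 15.3, 27 and 33.9% in the authors' deposited table. A site 125609 bp from the start, in an island shore, went the other way, from 33.5% in LFLS to 13.7% in HFHS in the authors' deposited table (q = 0.000167; listed difference -19.9 points). By gene order in GRCm38.p6 the neighbours of Col4a1 are Irs2 and Col4a2, so the distant sites need not belong to it. Both Col4a6 sites, on the X chromosome, were lower, by -12.2 and -14.0 points in the authors' deposited table, and the single Col4a4 site was higher.

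Among the laminins, Lamc1, the gamma chain of most laminins, had 3 of 4 sites lower on chromosome 1. The 3 lower sites were intronic, among them the one at 155135276, which had the smallest q of the class at 9.17e-06 (86.6% in LFLS and 76.5% in HFHS, authors' deposited table), and the higher site lay 13240 bp before the start. Lamc3, another gamma chain, had 1 of 3 sites higher, and an intronic pair 461 bp apart moved in opposite directions, by -13.5 and 12.3 points in the authors' deposited table. Lamb2, a beta chain of vascular and kidney basement membranes, had a single exonic site on chromosome 9 at 108384264, at 92.3% in LFLS and 70.6% in HFHS in the authors' deposited table (q = 3.63e-05). Lamb1, the beta chain of most laminins, had 2 of 3 sites higher, the largest change 2465 bp before the start, from 30.4% to 46.9% in the authors' deposited table. Lama5, a widely expressed alpha chain, had its promoter shore site higher, 1.52% in LFLS and 11.5% in HFHS in the authors' deposited table, and an intronic site lower. Lama3, the alpha chain of laminin-332, was the reverse: the promoter shore site was lower, at 5.99% and 1.02% in the authors' deposited table, and an intronic site was higher. Lama1 and Lamb3 had 1 higher intronic site each.

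Other collagens, which cap, link or anchor fibres or span the membrane, had 16 of 23 sites higher at 11 genes. The share of all sites was 57.6%. With 1 site per cluster 64.7% of 17 were higher, against 55.6% of all clusters. The class had a median LFLS average of 20.6%, and 79.5% of all sites with a mean level under 30% were higher. Col18a1, a basement membrane collagen whose end fragment is endostatin, had 6 sites on chromosome 10. Its 3 sites just after the later start (76576260 to 76576296, promoter and exon), the start whose 6 CpGs are shown above, stood at 8.21 to 17.4% in LFLS and 22.9 to 32.6% in HFHS in the authors' deposited table. The differences of these 3 sites were 18.0, 15.8 and 15.9 points in the authors' deposited table. By contrast the Col18a1 sites 15358 bp after and 44228 bp before the earlier start fell, by 18.5 and 17.1 points in the authors' deposited table. The sixth site, intronic and 16666 bp after the later start, rose from 74.8% to 82.1% in the authors' deposited table. Thus the gene held both rises and falls, and the rises were not confined to a start. The smallest q of the class, 1.04e-06, belonged to Col28a1, an intronic site on chromosome 6 at 7996247 with 6.14% in LFLS and 15.4% in HFHS in the authors' deposited table.

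All 3 sites of Col26a1 were higher, by 10.4 to 16.6 points in the authors' deposited table, but they lay within 156 bp of each other. The intronic pair of Col13a1, a transmembrane collagen, was lower, by -14.6 and -18.6 points in the authors' deposited table, while the shore site before its start went from 0.674% to 5.37%. Col17a1, the transmembrane collagen of hemidesmosomes, had 2 of 3 sites higher, none with a gene flag. Col6a5, a chain of the beaded-filament collagen VI, had 1 site each way, and the Col6a1 site, 2513 bp before the start, was lower, at 8.61% and 2.35% in the authors' deposited table. Single sites of Col9a1, Col12a1, Col16a1 and Col22a1, which belong to the collagens that sit on fibril surfaces, were all higher, by 8.72 to 15.2 points in the authors' deposited table.

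**Figure D2:**
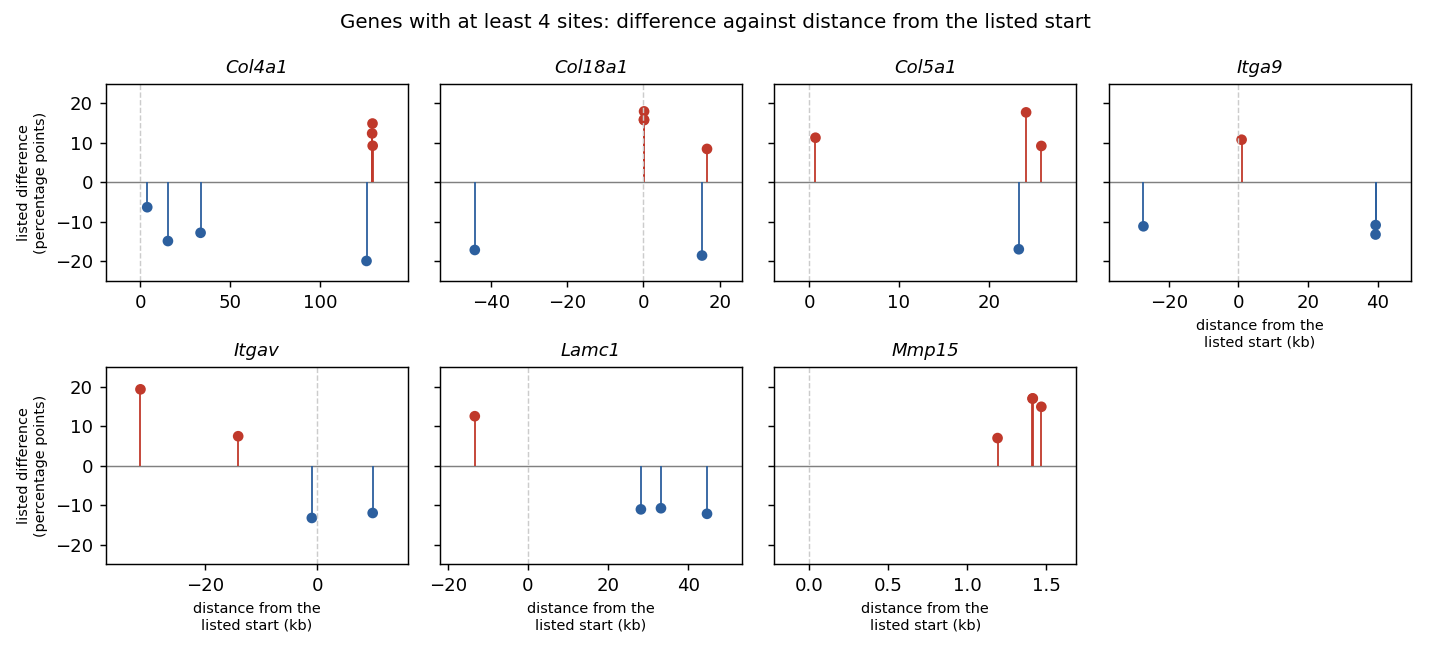
Each of the 7 panels is 1 gene with at least 4 sites; the horizontal axis is the distance from the start listed for each site (kb, negative before the start, different transcripts of a gene not distinguished), and the vertical axis is the listed difference in percentage points. Mmp15 is the only one of these 7 genes whose sites all lie on one side of 0, and its 4 sites fall within 277 bp.

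Integrin subunits had more falls than rises: 12 of 34 sites (35.3%) were higher, 9 of 23 at 10 alpha subunit genes and 3 of 11 at 6 beta subunit genes, where 57.6% of all sites were higher. With 1 site per cluster the count was 11 of 30, against 55.6% of all clusters, with 45% of 20 at alpha and 20% of 10 at beta subunits. The low share of the beta subunits did not hold in 2 smaller subsets. These had 3 of 5 sites higher at q under 0.001 and 3 of 6 at an absolute difference of 10 points or more. At the same limits the alpha subunits had 44.4% of 9 sites and 25% of 16 higher. The shares of all sites at these limits were not counted. The median average at integrin sites was 70.6% in LFLS and 57.8% in HFHS, against 47.4% and 51.0% over all sites of the authors' deposited table. Direction went with level in the whole table, and the integrins were set beside sites of similar mean level for that reason. Under 30% mean level, 8 of 10 integrin sites were higher (79.5% of all sites), from 30 to 70% it was 3 of 12 (58.7% of all sites), and at 70% and over 1 of 12 (33.7% of all sites). The members outside the integrins had 66 of 108 higher. No test of these differences was run.

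**Figure D3:**
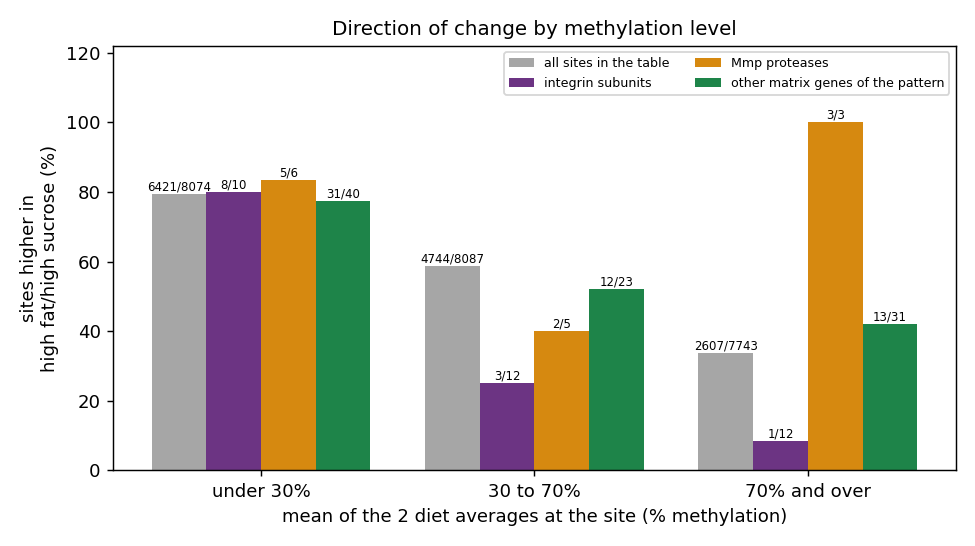
Bars give the share of sites that were higher in HFHS (percent, with counts above) in 3 ranges of the mean of the 2 diet averages, for all sites of the table, integrin subunits, Mmp proteases and the other members. Integrin bars lie below the grey bars at 30 to 70% (3 of 12) and at 70% and over (1 of 12), and near them under 30% (8 of 10).

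Integrins of leukocytes, a group formed after these values were seen, had 1 of 10 sites higher, where 57.6% of all sites were. Of the 10, the 3 Itgae sites lie within 67 bp and form 1 cluster. Most of the 10 had a mean level of 30 to 70%, a range in which 58.7% of all sites were higher. At a mean level of 70% and over it was 33.7% of all sites. The median average of the 10 sites was 72.6% in LFLS and 52.6% in HFHS in the authors' deposited table. Itga4, the alpha 4 subunit that lymphocytes use to leave vessels, had all 3 sites lower on chromosome 2. Its intronic site at 79099943 went from 59.0% in LFLS to 40.2% in HFHS in the authors' deposited table (q = 0.00328; listed difference -18.9 points). The other Itga4 sites, one intronic and one 127890 bp before the start, were at 50.7% and 37.9% and at 58.4% and 42.1% in the authors' deposited table. Ube2e3 is a neighbour of Itga4 in GRCm38.p6, so the far site need not belong to Itga4. Itgae, the CD103 subunit that pairs with beta 7 on T cells of epithelia, had 3 sites within 67 bp of each other, about 6 kb before its start on chromosome 11. The one at 72897962 had the smallest q of the alpha subunits (9.33e-08), with 70.7% in LFLS and 48.8% in HFHS, and its neighbours were at 78.0% and 64.0% and at 78.5% and 66.3% in the authors' deposited table.

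The sites of the leukocyte beta subunits were lower too. The Itgb2 site (the CD18 chain of LFA-1 and Mac-1), 6806 bp before the start on chromosome 10 at 76986287, was at 74.4% and 56.5% in the authors' deposited table. The Itgb7 site, 2921 bp before the start on chromosome 15, was at 76.5% and 63.0% in the authors' deposited table. Itgal, the alpha chain of LFA-1, had both directions in introns: 13.3% and 25% at 134452055, and 99.6% and 90.5% at 134453573, 1518 bp away, in the authors' deposited table. That first Itgal site was the only higher one of the group.

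Markers of cell types were counted in the same way, again beside 57.6% of all sites higher. Lymphocyte markers outside the integrins had 6 of 17 sites higher at 6 of the 12 genes listed. Of these, Ptprc (CD45), which is carried by leukocytes in general, had 0 of 6. Zap70 had 3 of 3, Cd4 1 of 1, Cd2 and Lck 1 of 3 each, and Cd3d 0 of 1. Macrophage markers had 2 of 3, neutrophil and platelet markers 1 of 4, all at Gp9, and cholangiocyte markers 4 of 12. Endothelial markers had 15 of 33, stellate cell and fibroblast markers 8 of 13, and hepatocyte markers 22 of 23. The hepatocyte marker sites had a median LFLS average of 21.7%, and 79.5% of all sites with a mean level under 30% were higher; the lymphocyte marker sites had a median LFLS average of 75.1% in the authors' deposited table. The part of cell composition in the integrin counts was not tested.

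Integrins that bind the RGD sequence of fibronectin, vitronectin and latent TGF-beta had 5 of 12 sites higher, where 57.6% of all sites were. The 12 sites were at Itgav, Itga8, Itgb3, Itgb5 and Itgb6, with a median LFLS average of 34.4%. Itgb3, the beta 3 chain of platelets, endothelium and osteoclasts, held the largest listed rise of all members and also one of the 10 largest falls. Its intronic site on chromosome 11 at 104472971 went from 19.9% in LFLS to 42.3% in HFHS in the authors' deposited table (q = 0.000558), a listed rise of 24 points. The Itgb3 site at 104541382, 42683 bp from the start and without a gene flag, went from 88.9% to 70.7% in the authors' deposited table (q = 0.00674; listed difference -19.3 points), and another intronic site was lower too. Itgav, the alpha v partner of beta 3, 5 and 6, divided by position on chromosome 2. The sites 31392 and 14040 bp before its start were higher, by 19.3 and 7.43 points, and the promoter shore site at 83563591 and an intronic site were lower, by -13.3 and -12.0 points in the authors' deposited table. Itgb6, the epithelial partner that activates latent TGF-beta, had a promoter pair 323 bp apart with opposite signs, 17.1 and -8.87 points in the authors' deposited table, and another site lower. The promoter site of Itga8, a subunit of stellate and mesangial cells, rose from 3.63% to 11.6% in the authors' deposited table, and the intronic Itgb5 site fell from 13.6% to 6.25%.

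For receptors of collagen and laminin the counts were small, and 57.6% of all sites were higher. Collagen receptors had 2 of 3 sites higher: Itga2 with 1 of 1 and Itga11 with 1 of 2. Laminin receptors also had 2 of 3: the Itga6 island site in the promoter on chromosome 2 at 71625870 was listed at 0% in LFLS and 10.9% in HFHS in the authors' deposited table, and Itga3 had 1 site each way. Itgb1, the common beta chain that pairs with many of these alpha chains, had an intronic site at 11.8% and 28.1% in the authors' deposited table (q = 0.000268, the smallest of the beta subunits) and a site 31308 bp before the start that was lower. Itga9, which binds tenascin C and osteopontin, had 1 of 4 sites higher, the promoter shore site at 11.4% and 21.3% in the authors' deposited table. Its other sites were intronic, stood at 73.8 to 95.3% in LFLS and were lower by 10.8 to 13.2 points in the authors' deposited table.

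**Figure D4:**
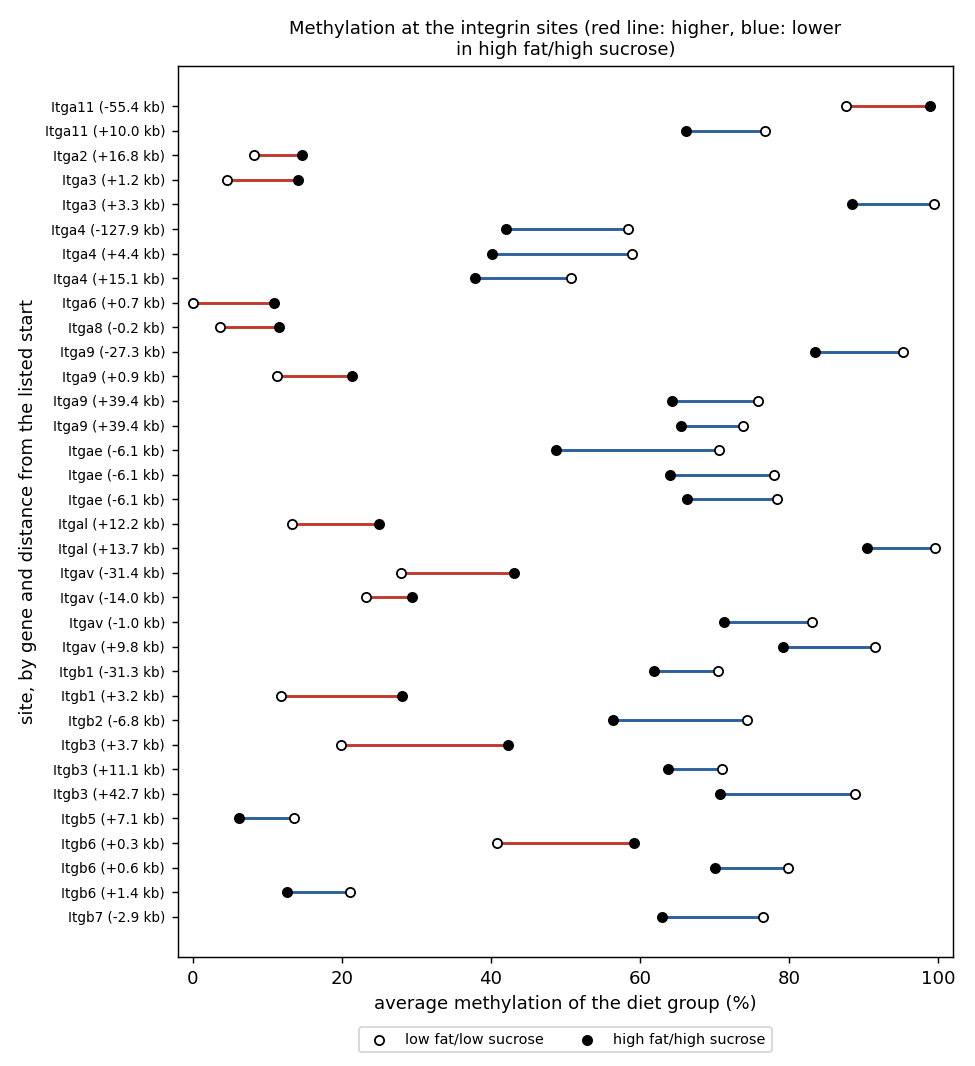
For each of the 34 integrin sites the open circle is the LFLS average and the filled circle the HFHS average (percent methylation), with the gene and the distance from its listed start at the left. Every site of Itga4, Itgae, Itgb2 and Itgb7 has its filled circle on the left, while the low-level sites of Itga2, Itga3, Itga6, Itga8, Itga9, Itgal and Itgb1 have it on the right. The low-level sites of Itgb5 and Itgb6 have it on the left.

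Matrix metalloproteinases had 10 of 14 sites higher at 7 genes, where 57.6% of all sites were, and all 14 lay within 10000 bp of the listed start. Shore sites made up 10 of the 14, with 7 higher, and 3222 of 4902 shore sites of the table were higher. Joined into clusters the Mmp count was 5 of 8. Mmp15, one of the membrane-anchored members, had 4 of 4 higher in an island shore in an intron on chromosome 8, between 97877427 and 97877704. In the authors' deposited table the Mmp15 averages were 2.38, 25.8, 25.8 and 68.5% in LFLS and 9.04, 43.4, 43.2 and 82.7% in HFHS. Mmp14, which sits on the membrane and activates pro-Mmp2, had 3 of 3 higher in the shore before its start on chromosome 14. From the nearest to the farthest of these Mmp14 sites, 486, 947 and 1664 bp before the start, the authors' deposited table lists 3.17% against 11.4%, 10.4% against 25%, and 7.90% against 14.3%. Mmp2, a gelatinase of stellate cells, had 1 site 7625 bp before the start on chromosome 8, at 80.2% in LFLS and 95.6% in HFHS in the authors' deposited table. Mmp11, which is known for stromal expression, had a promoter site at 10.5% and 24.8%, and Mmp19 an exonic one at 90.4% and 98.4% in the authors' deposited table.

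Falls within the family were at Mmp23 and Mmp9. Mmp23, another membrane-anchored member, held the largest listed fall of all members, on chromosome 4 at 155028626, where the averages were 44.2% in LFLS and 20.8% in HFHS in the authors' deposited table (q = 7.90e-05; listed difference -23.9 points). Its second site, 35 bp away, went from 54.1% to 34.4% in the authors' deposited table. Both carry the exon flag although they are listed before the Mmp23 start, so the exon may belong to another transcript. Mmp9, the gelatinase of neutrophils and macrophages, had a promoter shore site on chromosome 2 at 164772949 that went from 76.0% to 63.7%, and a site 9300 bp before the start that went from 9.06% to a listed 0% in the authors' deposited table.

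Adamts proteases had 11 of 19 sites higher at 14 genes, near the 57.6% of all sites. At an absolute difference of 10 points or more it was 5 of 13 (38.5%). All members together had 50% of 96 sites higher at that limit, and the share of all sites was not counted there. Adamts proteases known to cleave large proteoglycans such as aggrecan and versican had 4 of 9. Among them the Adamts15 site 36333 bp from the start, on chromosome 9 at 30693705, had the smallest q of all members (1.32e-08), with 68.7% in LFLS and 47.9% in HFHS in the authors' deposited table. A second Adamts15 site was higher by 9.26 points in the authors' deposited table. The Adamts5 exonic shore site, 1750 bp from the start on chromosome 16, rose from 24% to 39.7% (q = 0.000957), and the Adamts4 promoter site on chromosome 1 fell from 30.7% to 18.7% in the authors' deposited table. The Adamts1 site, 126073 bp from its start, was lower, and the neighbouring gene on that side is Cyyr1 in GRCm38.p6. Adamts20 had 1 of 3 sites higher and Adamts8 1 of 1.

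The procollagen N-propeptidases, which trim the ends of fibrillar procollagens, had 1 of 3 sites higher, where 57.6% of all sites were. Adamts14 was at 86.5% and 97.7%, Adamts2 at 71.6% and 60.8%, and Adamts3 at 33.0% and 19.6% in the authors' deposited table. Adamts16 had 3 of 3 higher on chromosome 13, all before the start at 35393, 162219 and 209439 bp. The farthest had the second largest listed rise of all members, and the averages went from 47.1% to 72.4% in the authors' deposited table (q = 0.000354; listed difference 23.7 points). Irx1 is a neighbour of Adamts16 in GRCm38.p6, so sites this far away need not belong to it. Promoter sites of Adamts18 and Adamts19 in CpG islands were listed at 0% in LFLS and at 4.24% and 5.37% in HFHS in the authors' deposited table. The Adamts7 promoter shore site was at 0.510% and 8.11%, and that of Adamts10, whose protein binds fibrillin microfibrils, was at 65.9% and 55.7% in the authors' deposited table.

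Adamtsl proteins share the outer domains of Adamts enzymes but lack the protease. They had 2 of 5 sites higher, where 57.6% of all sites were. Both Adamtsl5 sites were higher, the intronic one at 41.1% and 59.0% in the authors' deposited table. The Adamtsl4 site 19851 bp before the start fell from 85.4% to 69.7% (q = 0.000190), and an intronic Adamtsl1 site on chromosome 4 at 85930975 fell from 89.2% to 74.5% in the authors' deposited table. The symbols of another kind had 2 of 4 sites higher. The Col4a3bp intronic site at 97346062 rose from 32.5% to 43.0% (q = 5.09e-06) and its island promoter site fell from 4.27% to a listed 0%, while the Itgb1bp1 site, 58115 bp from the start, was lower in the authors' deposited table.

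By location, 25 of the 142 sites (17.6%) carried the promoter flag, and 18 of these were higher, where 2727 of 4183 promoter sites of the table were. Island sites numbered 5 with 4 higher, at Adamts18, Adamts19, Col5a1 and Itga6, and 1146 of 1703 island sites of the table were higher. Shores held 25 with 17 higher (3222 of 4902 in the table), introns 76 with 45 higher (6529 of 11747) and exons 17 with 10 higher (1980 of 3190), all near the shares of the table. The 43 sites without a gene flag had 20 higher, where 4735 of 8223 such sites of the table were. More than 10000 bp from the listed start lay 76 sites (53.5%), against 47.6% of all sites. The farthest was at 209439 bp, and 9 sites listed before a start carry an exon or intron flag, so a site named for a gene need not lie in it.

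Genes with several sites mostly held both directions. Of the 69 symbols 32 had 1 site, and of the 22 with 3 or more, 5 had all sites higher (Adamts16, Col26a1, Col5a3, Mmp14, Mmp15), 2 all lower (Itga4, Itgae) and 15 both directions. That is 31.8% in one direction, where 33.7% of the 2722 symbols with 3 or more sites in the table were. At 2 or more sites it was 35.1% of 37 member genes, against 45.8% in the table, and at 4 or more 12.5% of 8, against 26.2%. Close neighbours went together, at the members as in the whole table. Of 25 pairs of adjacent member sites of one gene within 1000 bp, 22 had the same direction (88.0%). In the table it was 88.2% of 4822 such pairs. Within 100 bp all 14 member pairs had the same direction, as had 2822 of 2912 pairs in the table. The 3 opposite pairs were those of Col5a1, Itgb6 and Lamc3 described above. Of the 5 sites listed at 0% in LFLS, 4 were island sites in promoters and the fifth was a shore site of Adamtsl5.

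The other genes of matrix biology, a list of 137 outside the pattern, gave 205 sites at 80 genes, of which 106 were higher and 99 lower (51.7% higher, against 57.6% of all sites). At 29 of these genes every site was higher, at 22 every site was lower and at 29 both occurred; of all 9100 symbols these were 3785, 2743 and 2572. All sites were higher at the syndecan gene Sdc4 (7 of 7), at the lysyl oxidase gene Loxl3 (3 of 3) and at P4ha3 (3 of 3), a collagen prolyl hydroxylase subunit whose 3 sites form 1 cluster. All were lower at the integrin-linked genes Parvb (0 of 3) and Ptk2b (0 of 3), at Reck (0 of 3), a membrane inhibitor of Mmp enzymes, and at Tgfb1 (0 of 2) and Sparc (0 of 2). Pxn, the focal adhesion protein paxillin, had 1 of 6 higher, and Tns3, a tensin, had 7 of 15. Other integrin-linked genes went both ways, with 2 of 2 higher at Fermt1, 3 of 4 at Bcar1, and 1 of 3 at Parva and at Tln2. These genes were named after their counts were seen.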

How the data were processed

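Bulk liver DNA of 13 mice was compared between 2 diets (7 low fat/low sucrose, 6 high fat/high sucrose). Per the submitters' processing notes, CASAVA 1.8, Trim Galore, Bismark and methylKit were used with build mm9; their settings are not stated there. Per the file headers, the authors' table gives p-values and q-values, a difference in percentage points and an average percent methylation for each diet. The authors averaged the mice of a diet. The weighting, the test and how it combined the mice are not stated, and depth is unknown. The sign of the difference matched the averages at all 142 member sites; the 2 measures differed by a median of 0.716 points and at most 5.03. The feature distance was read as distance to a transcript start, and chr20 as X. All 69 symbols were placed on the same chromosome by the RefSeq table (GRCm38.p6; 68 current, 1 synonym).

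Sites were matched by symbol and counted by direction with Python 3.11.15 and pandas 2.3.3; joining was checked on made-up sites. No test was run, since all sites come from the same mice. Members, classes and lists were chosen with earlier results of these data known. Sites given in full were the 10 largest rises and falls (1 per gene), genes with 4 or more sites, promoter or island sites of 10 points or more, and the smallest p per class. Other sites are given to complete each class. Some items that this rule takes are counted but not reported singly here.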

Additional observations from a re-analysis of the deposited data

How the results depend on the processing

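The share of member sites that were higher lay between 48.6% (mean level of 20 to 80%) and 58.6% (promoter, exon or intron flag) under 11 alternatives, against 54.9%, and was 50% at 10 points or more. Shares of classes, where few sites remain, moved beyond their exact 95% binomial interval in 8 of 63 comparisons, and none of the other 21 shares and medians did. With q under 0.001 the share was 100% at fibrillar collagens (2 sites) and at the symbols of another kind (1 site), 40.0% at other collagens (5 sites) and 0% at Adamtsl proteins (2 sites). At a mean level of 20 to 80% it was 100% at fibrillar collagens (5 sites) and 16.7% at integrin alpha subunits (12 sites). Symbols of another kind had 0% within 10000 bp of the start and 0% without Col4a3bp (1 site each). Mmp proteases were at 50% with q under 0.001 (2 sites) or at a mean level of 20 to 80% (6 sites), and Adamts proteases ranged from 38.5% to 71.4%. By the difference of averages all 20 largest rises and falls kept their sign, at 0.722 to 1.11 times the listed value. Leaving out X, or the gene with the most sites of a class, was added after the data were seen.

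Alternatives that need values per mouse or coverage (leaving out mice, coverage minimums, the title prefix as covariate) were not run. No paired analysis was possible because the table gives 1 average per diet. Intervals cover counting of sites only and treat sites as independent, although 88.0% of adjacent member pairs had the same direction. Most alternatives use the same sites or a part of them, and intervals of small classes are wide. A share that stays inside its interval is therefore not shown to be stable.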
